A study of Homo sapiens with 4 samples.

Results

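The genes described here are 9 killer cell lectin-like receptor genes and HCST, the gene of the adapter protein DAP10. They were found by matching the symbols KLRC1, KLRC2, KLRC3, KLRC4, KLRD1, KLRK1, KLRB1, KLRG1, KLRF1 and HCST to the Ensembl identifiers of the deposited table. All 10 were present among 20323 genes, and 8 of them had enough counts to be tested. RNA came from NK-92, an established human natural killer (NK) cell line grown with interleukin 2. NK scramble cells, the controls, carried a lentivirus with a scrambled hairpin (shscramble) and NK shADAR1 cells a lentivirus with a hairpin against the RNA-editing enzyme ADAR1. Each group had 2 libraries of oligo(dT)-selected RNA, described by the submitters as independent biological replicates, with 37881704 to 39960491 estimated counts per library. All 4 libraries were made from 1 cell line under 1 culture condition, and the labels number the shADAR1 libraries 1 and 2, which were read as replicate numbers and not as names of hairpins. The paper names the sequenced knockdown cells after its hairpin shADAR1-2. By that account, differences between the groups rest on 1 hairpin. Where 2 values are given for a group, that of replicate 1 comes first.

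Killer cell lectin-like receptors are C-type lectin-like membrane proteins by which NK cells read ligands on other cells. CD94, the product of KLRD1, pairs with an NKG2 chain, and the pair binds HLA-E. NKG2A (KLRC1) gives an inhibitory signal through the phosphatases SHP-1 and SHP-2, whereas NKG2C (KLRC2) signals through the activating adapter DAP12 (TYROBP). NKG2D (KLRK1) forms homodimers that bind stress ligands such as MICA and MICB, and in humans it signals through DAP10, which recruits PI 3-kinase and GRB2. KLRB1 (CD161), KLRG1 and KLRF1 (NKp80) read other ligands, LLT1 (CLEC2D), cadherins and AICL (CLEC2B) respectively.

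The 9 receptor genes lie on chromosome 12 between 8950044 and 10454685 (GRCh38, GENCODE release 29; the build of the deposited table is not given in the sources used here). KLRD1, KLRK1 and the KLRC genes form a group of 228.6 kilobases at one end. The KLRC genes and KLRK1 are all on the minus strand, in the order KLRC1, KLRC2, KLRC3, KLRC4 and KLRK1 in the direction of transcription. HCST lies on chromosome 19 from 35902480 to 35904377, and the 3′ ends of HCST and TYROBP face each other with 23 bases between them. The NKG2 genes of the KLRC group are close copies. In coding sequence, KLRC1 was 88.4% identical to KLRC2, and KLRC2 was 96.4% identical to KLRC3 and 93.3% identical to KLRC4. The first 30 coding bases are shown because they are a stretch in which KLRC1 can be told from the other 3, with capitals for bases that differ from KLRC1 (7 in KLRC2, 8 in KLRC3 and 6 in KLRC4). They lie on the minus strand at chr12:10451127-10451156 for KLRC1, chr12:10435957-10435986 for KLRC2, chr12:10420521-10420550 for KLRC3 and chr12:10409546-10409575 for KLRC4.
KLRC1: atggataaccaaggagtaatctactcagac
KLRC2: atgAataaAcaaAgagGaaCctTctcagaA
KLRC3: atgAGtaaAcaaAgagGaaCctTctcagaA
KLRC4: atgAataaAcaaAgagGaaCctactcagaA
The following run shows the opposite case. It is the start of a stretch of 55 coding bases that KLRC1, KLRC2 and KLRC3 share without a difference, beginning at coding base 338 of KLRC1 and 332 of KLRC2 and KLRC3.
KLRC1, KLRC2 and KLRC3: cacgtcattgtggccattgtcctgaggagt
A fragment from that stretch alone cannot be given to 1 of the 3 genes. Of all distinct windows of 100 bases in the annotated transcripts of KLRC1, 3.94% also occur in those of KLRC2, and 8.20% of the windows of KLRC2 occur in KLRC1 or KLRC3. The overlap was larger for a different reason at KLRC4 and KLRK1. Both lie inside the readthrough gene KLRC4-KLRK1 (chromosome 12, 10372353 to 10410146), and 44.8% of KLRC4 windows and 57.0% of KLRK1 windows also occur in its transcripts. In the deposited counts KLRC1, KLRC2, KLRC3, KLRC4 and KLRK1 had fractional counts, and the other 5 genes had whole counts in all 4 libraries.

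ADAR, the targeted gene, had 655 and 682 CPM with the scrambled hairpin, against 575 and 482 CPM with the ADAR1 hairpin. CPM are counts scaled to library size, which was adjusted by edgeR's TMM method. Means were 669 ± 19.2 and 529 ± 65.7 CPM (SD, n = 2). Both NK shADAR1 libraries were below both NK scramble libraries, with a log2 fold change of -0.34 (SE 0.20), which did not pass the quasi-likelihood test of edgeR (adjusted p = 1.00). It ranged from -0.47 to -0.22 with 1 library left out, the latter without NK shADAR1 replicate 2. The study also reported the knockdown by quantitative PCR and by western blotting, which are measures other than this sequencing.

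Levels of different genes were compared on FPKM, which the authors scaled by transcript length. HCST had the highest level, with 128 and 192 FPKM in the NK scramble pair, against 185 and 207 FPKM in the NK shADAR1 pair. The mean of its 4 values exceeded that of 97.8% of all genes in the table. KLRC1 was next, with 89.8 and 119.8 FPKM in control cells, compared with 123 and 122 FPKM in knockdown cells. KLRK1 followed at 26.5 to 46.0 FPKM, and KLRD1 at 15.6 to 23.6 FPKM. These ranges over the 4 libraries did not overlap between neighbours in the order. The order rests on the lengths behind FPKM, as implied by counts and FPKM. These were about 515 bases for HCST, 1390 for KLRC1, 1507 for KLRK1 and 4363 for KLRD1. In counts not scaled by length, KLRC1 exceeded HCST and KLRD1 exceeded KLRK1 in every library. KLRG1 (3.98 to 7.49 FPKM) and KLRC2 (5.03 to 7.99 FPKM) overlapped and could not be ordered. KLRC4 (0.584 to 2.53 FPKM) and KLRC3 (0.141 to 0.980 FPKM) also overlapped. KLRF1 and KLRB1 were near 0. KLRF1 had 2 and 4 counts in NK scramble and 0 in both NK shADAR1 libraries. KLRB1 had 2 counts in NK shADAR1 replicate 1 and 0 in the other libraries. A count of 0 allows up to 0.0751 to 0.0803 CPM at these depths, an upper limit of 3 counts that covers counting error only, and with so few counts no fold change is given for either gene. The plot of FPKM by library shows that the order of the 4 most abundant genes was the same in each library.

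**Figure D1:**
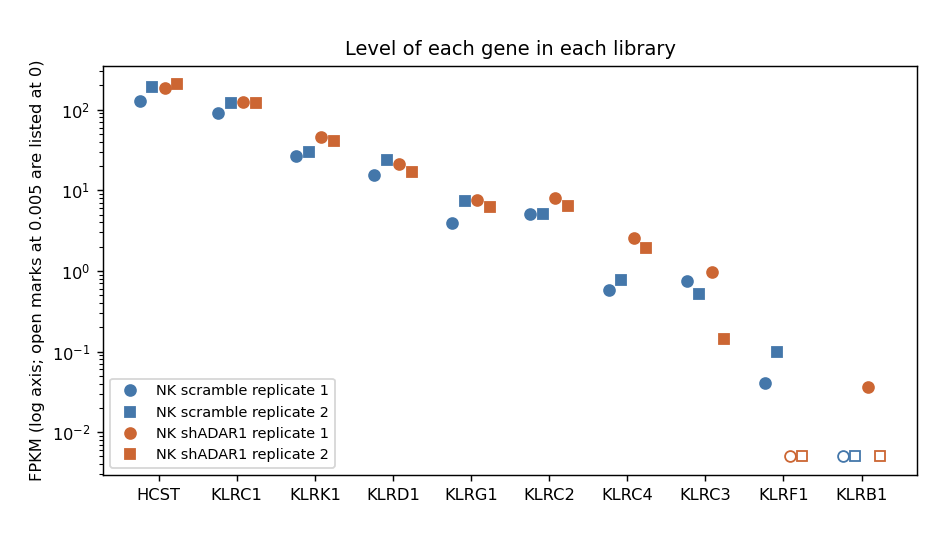
FPKM (log axis) of the 9 receptor genes and HCST in each of the 4 libraries, ordered by mean level, with open marks for genes listed at 0. HCST and KLRC1 lead in every library, KLRC4 is higher in both NK shADAR1 libraries, and KLRF1 and KLRB1 are at or near 0.

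The comparison of the groups asks whether receptor transcripts differed after ADAR1 knockdown. KLRC4 and KLRK1 were the 2 receptor genes with an unadjusted p under 0.05, both higher in NK shADAR1 cells, among 8 tested. Across all 11810 tested genes, 293 (2.48%) had an unadjusted p under 0.05 by edgeR's quasi-likelihood test, where 1.70% of the tested genes were higher after knockdown and 0.779% were lower. DESeq2 gave the same 2 receptor genes, beside 1.85% of its tested genes and 1.23% that were higher. With 1 library left out, the log2 fold change was 1.51 to 1.95 for KLRC4 and 0.51 to 0.74 for KLRK1. It was 0.011 to 0.62 for HCST, -0.048 to 0.86 for KLRG1 and -2.55 to 0.46 for KLRC3. None of the 8 genes passed after adjustment over all genes. Nor did any other gene in this fit of edgeR, which has no replicate block, or in DESeq2, in which 289 genes had an unadjusted p under 0.05. With the replicate number as a block, edgeR gave 13 differentially expressed genes (adjusted p under 0.05 and at least 1.5-fold), with none of the 8 among them. Members of the list were chosen with results of these data known, so the count of 2 is a description. The study used DESeq2 with an adjusted p under 0.05 and at least 1.5-fold, reported differentially expressed genes, and showed KLRC4 and KLRK1 as increased. The DESeq2 fit made here called no gene at those thresholds, and the reason for this difference was not tested. Both come from the same samples, so the values of KLRC4 and KLRK1 are not independent evidence. The median log2 fold change of the 8 genes was 0.31, with 7 above 0 and 1 below, beside a median of 2.76e-05 over all tested genes, of which 50.0% were above 0. This median was 0.00074 without NK scramble replicate 1. In 3 of the 8 genes, KLRC2, KLRC4 and KLRK1, both NK shADAR1 libraries exceeded both NK scramble libraries, as they did in 13.3% of all tested genes. The groups lay apart in either direction in 26.0% of all tested genes. In the other 5 receptor or adapter genes they overlapped.

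KLRK1 (ENSG00000213809, chromosome 12, 10372353 to 10391874), which encodes the activating receptor NKG2D, had 39.1 and 45.9 CPM with the scrambled hairpin, against 67.8 and 63.1 CPM with the ADAR1 hairpin. The groups did not overlap, and the gap between them was wider than the gap between replicates. Mean values were 42.5 ± 4.84 and 65.4 ± 3.34 CPM (SD, n = 2). The log2 fold change was 0.62 (SE 0.20, 95% interval 0.18 to 1.06, edgeR adjusted p = 1.00), a ratio of 1.54. Leaving out 1 library at a time gave 0.51 to 0.74. The unadjusted p stayed under 0.05 except without NK scramble replicate 1. In bulk RNA, more cells with KLRK1 transcripts and more transcripts per cell cannot be told apart.

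KLRC4 (ENSG00000183542, chromosome 12, 10407382 to 10409757) encodes NKG2F, an NKG2 protein that lacks most of the lectin-like domain and whose function is not settled. It had estimated counts of 21.4 and 28.3 in the NK scramble pair, against 88.9 and 68.4 in the NK shADAR1 pair. On the scaled values these were 0.526 and 0.713 CPM against 2.26 and 1.82 CPM, with no overlap. The log2 fold change was 1.72 with an SE of 0.48 (95% interval 0.65 to 2.78, edgeR adjusted p = 1.00), and it was the largest among the 8 genes. It was 1.51 to 1.95 when 1 library was left out. With deposited FPKM in place of counts, and 1 added before taking the log, limma gave 0.94, since this pseudocount is of the size of the level itself.

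The readthrough gene KLRC4-KLRK1 had 1.63 and 2.37 CPM in control cells, compared with 3.74 and 3.0 CPM in knockdown cells. Of its 13 annotated transcripts, 12 are annotated as targets of nonsense-mediated decay. Its log2 fold change was 0.75 (SE 0.39, edgeR adjusted p = 1.00). Since the 3 genes share sequence, their counts were also added together before the fit. The sum was 1648 and 1926 counts with the scrambled hairpin, against 2902 and 2535 counts with the ADAR1 hairpin, a log2 fold change of 0.65 (SE 0.20, edgeR adjusted p = 1.00). KLRK1 held 91.9% to 94.7% of the summed counts in every library, so the summed value is close to that of KLRK1 alone. The share given to KLRC4 was 1.30% and 1.47% in the control pair and was 3.06% and 2.70% in the knockdown pair. The readthrough gene held 3.96% and 4.81% with the scrambled hairpin, against 5.07% and 4.40% with the ADAR1 hairpin, and these overlapped. Whether the higher KLRC4 counts came from KLRC4 transcripts or from fragments of readthrough transcripts was not tested, since that needs reads. The plot of the overlapping genes shows the same order of groups in each gene and in the sum.

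**Figure D2:**
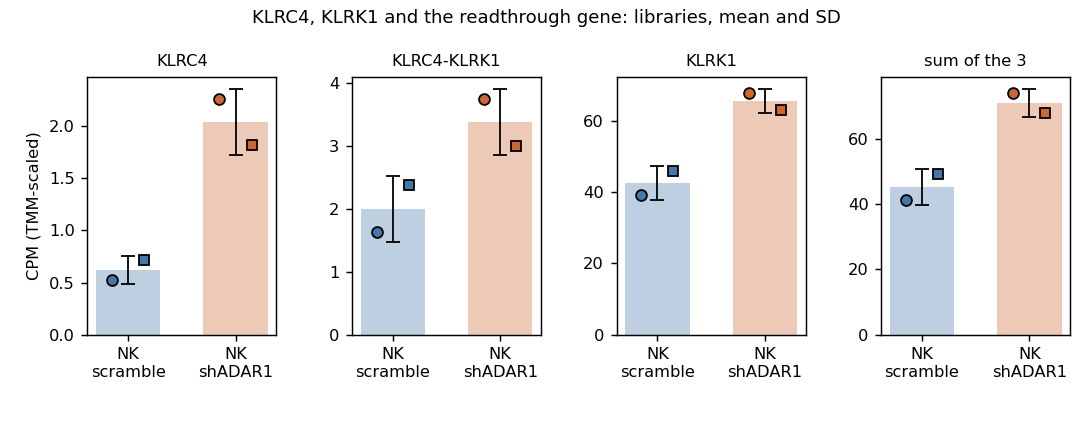
CPM of KLRC4, KLRC4-KLRK1, KLRK1 and their sum, with a mark for each library (circle for replicate 1, square for replicate 2), bars for the mean and error bars for the SD of 2 libraries. In all 4 panels both NK shADAR1 libraries lie above both NK scramble libraries.

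Among the genes of the CD94 receptors, KLRD1, the shared partner, had 66.8 and 99.4 CPM in the NK scramble pair, against 97.5 and 74.7 CPM in the NK shADAR1 pair. Both NK shADAR1 values lay inside the range of the NK scramble pair. The log2 fold change was 0.051 (SE 0.24), and its 95% interval of -0.49 to 0.59 leaves changes of either sign possible. It was -0.21 without NK scramble replicate 1 and -0.15 without NK shADAR1 replicate 1. In the other direction, it was 0.36 without NK scramble replicate 2 and 0.23 without NK shADAR1 replicate 2.

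KLRC1, which encodes the inhibitory NKG2A, had 127 and 169 CPM in control cells, compared with 161 and 174.5 CPM in knockdown cells. Here NK scramble replicate 1 stood below the other 3 libraries. The log2 fold change was 0.18 (SE 0.21, 95% interval -0.28 to 0.65), and -0.0095 without that library.

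KLRC2, which encodes the activating NKG2C, had 5.31 and 4.86 CPM with the scrambled hairpin, against 7.02 and 6.08 CPM with the ADAR1 hairpin. The groups did not overlap, and the log2 fold change was 0.36 (SE 0.28, 95% interval -0.26 to 0.99, edgeR adjusted p = 1.00). KLRC3, which encodes NKG2E, had 0.751 and 0.534 CPM in the NK scramble pair, against 0.890 and 0.107 CPM in the NK shADAR1 pair, so that both the highest and the lowest value were in NK shADAR1 cells. Its log2 fold change of -0.36 had an SE of 0.80, and it was -2.55 without NK shADAR1 replicate 1 and 0.46 without replicate 2. Summing KLRC1, KLRC2 and KLRC3 gave a log2 fold change of 0.19 (SE 0.21), close to that of KLRC1, which holds most of these counts.

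HCST had 65.5 and 100.0 CPM in control cells, compared with 91.8 and 110.1 CPM in knockdown cells. Values overlapped, as NK shADAR1 replicate 1 lay below NK scramble replicate 2. The log2 fold change was 0.29 (SE 0.24, 95% interval -0.25 to 0.82), and it was 0.011 without NK scramble replicate 1 and 0.62 without NK scramble replicate 2. KLRG1, an inhibitory receptor, had 6.64 and 12.5 CPM with the scrambled hairpin, against 12.9 and 11.3 CPM with the ADAR1 hairpin. Again NK scramble replicate 1 was low and the other 3 libraries were alike. Its log2 fold change was 0.34 (SE 0.31, 95% interval -0.34 to 1.02), but -0.048 without NK scramble replicate 1 and 0.86 without NK scramble replicate 2. The plot with each library left out shows KLRC4, KLRK1 and KLRC2 above 0 in each case, whereas KLRD1, KLRC1, KLRG1 and KLRC3 changed sign.

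**Figure D3:**
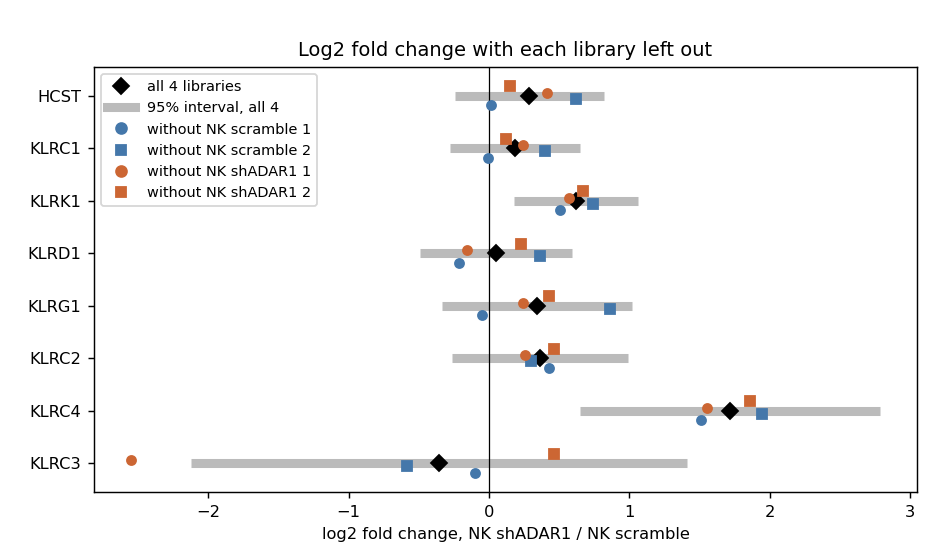
Log2 fold change (NK shADAR1 over NK scramble) of the 8 tested genes from all 4 libraries (diamonds, with grey bars for the 95% interval) and with 1 library left out (colored marks). The intervals of KLRC4 (0.65 to 2.78) and KLRK1 (0.18 to 1.06) lie above 0, and those of the other 6 genes include 0.

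Because receptor chains and adapters act as complexes, ratios of FPKM were taken within each library. They are given as a description with no test. With 2 libraries in each group, 0.333 is the smallest p that an exact two-sided permutation test allows. The ratio of KLRC2 to KLRC1, the activating and the inhibitory partner of CD94, was 0.0573 and 0.0420 in the NK scramble pair, against 0.0651 and 0.0522 in the NK shADAR1 pair. KLRC1 thus exceeded KLRC2 in every library, and the groups overlapped. KLRD1 to KLRC1 was 0.174 and 0.197 in control cells, compared with 0.175 and 0.139 in knockdown cells. This ratio rests on the length used for FPKM, which was about 4363 bases for KLRD1 and 1390 bases for KLRC1 as implied by counts and FPKM. KLRC2 to KLRD1 was 0.329 and 0.214 with the scrambled hairpin, against 0.373 and 0.375 with the ADAR1 hairpin, without overlap. Its log2 difference was 0.50, with 0.81 when NK scramble replicate 1 was left out and 0.19 when replicate 2 was. Taken on CPM, which is not scaled by length, this difference was 0.30 and the groups overlapped.

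TYROBP, which encodes DAP12, was more abundant than KLRC2, with a ratio of 14.1 and 12.3 in the NK scramble pair, against 11 and 9.41 in the NK shADAR1 pair. This ratio was lower in both NK shADAR1 libraries. HCST to KLRK1 was 4.84 and 6.37 in control cells, compared with 4.02 and 5.12 in knockdown cells. DAP10 transcripts therefore exceeded NKG2D transcripts in all 4 libraries, and the 2 groups overlapped. TYROBP to HCST, the ratio of the 2 adapters, was 0.565 and 0.324 with the scrambled hairpin, against 0.476 and 0.289 with the ADAR1 hairpin, also with overlap. The plot of ratios shows a gap between the groups for KLRC2 to KLRD1 and for TYROBP to KLRC2 and overlap in the other 3 that it shows. With 2 libraries in each group and no test, such a gap is a description of these 4 libraries.

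**Figure D4:**
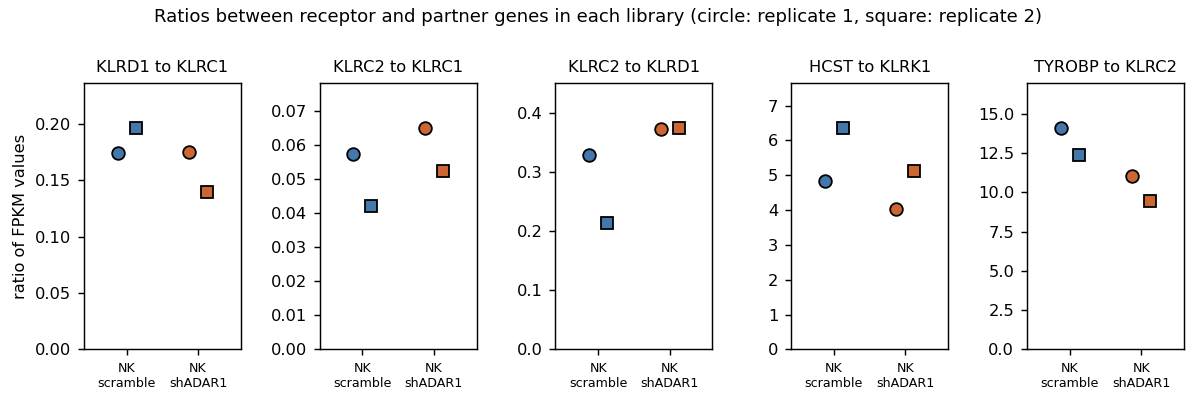
Ratio of FPKM values between receptor and partner genes in each library, on axes that start at 0. KLRC2 to KLRD1 is higher in both NK shADAR1 libraries (0.373 and 0.375) and TYROBP to KLRC2 is lower in both (11 and 9.41).

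Other genes of the same stretch of chromosome 12 were examined as a list of 21. It holds the readthrough gene KLRC4-KLRK1, which shares sequence with KLRC4 and KLRK1. Of the list, 18 were in the table and 10 were tested. None had an unadjusted p under 0.05 in edgeR or an adjusted p under 0.05, 8 were above 0 and 2 below, and the median log2 fold change was 0.076 (0.15 with DESeq2 or with no filter beyond 1 count, and 0.40 without NK scramble replicate 2). KLRF2, which encodes the activating receptor NKp65, was expressed at 16.4 and 21.0 FPKM with the scrambled hairpin, against 18.5 and 19.6 FPKM with the ADAR1 hairpin, near the level of KLRD1. Its log2 fold change was 0.020 (SE 0.23), or -0.16 to 0.22 with 1 library left out. This sets it apart in level from its relative KLRF1, which had no more than 0.10 FPKM. CLEC2A, the ligand gene of NKp65, was listed at 0 in all 4 libraries.

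CD69, an early activation marker, had 7.46 and 6.85 CPM in the NK scramble pair, against 7.32 and 9.32 CPM in the NK shADAR1 pair, a log2 fold change of 0.22 (SE 0.27) with overlapping groups. Leaving out NK shADAR1 replicate 1 gave 0.38, and leaving out replicate 2 gave 0.031. KLRK1, KLRC4 and the readthrough gene KLRC4-KLRK1, which spans both, had the 3 largest log2 fold changes on the stretch. Since they share sequence, these are not 3 separate values. Their neighbours KLRD1 and KLRC3 had 0.051 and -0.36.

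**Figure D5:**
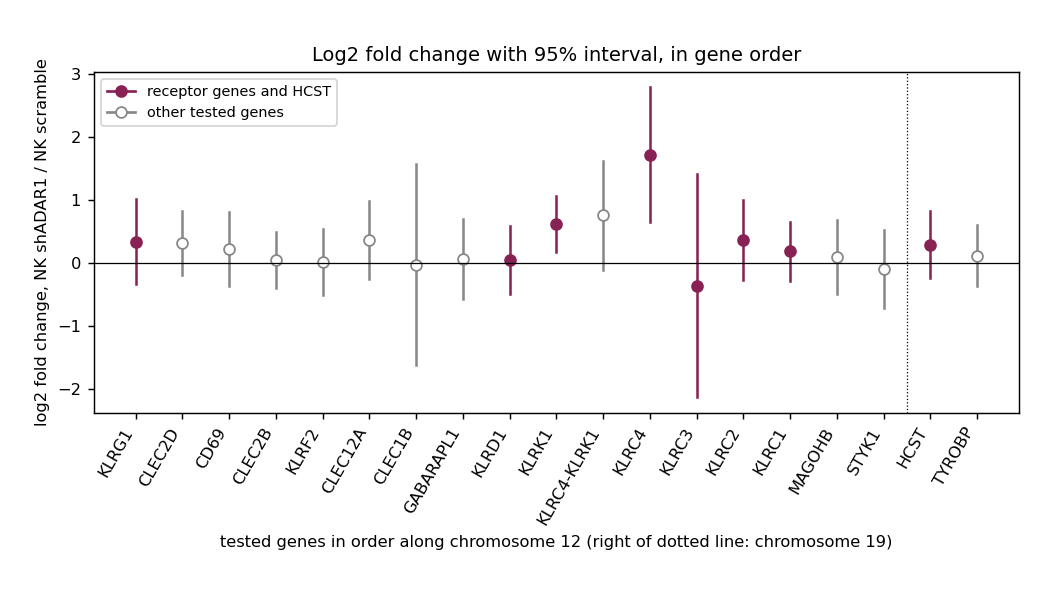
Log2 fold change (NK shADAR1 over NK scramble) with 95% interval for tested genes in order along chromosome 12, followed by HCST and TYROBP of chromosome 19, with filled marks for the receptor genes and HCST. KLRK1 (0.62) and KLRC4 (1.72) lie inside the readthrough gene KLRC4-KLRK1 (0.75). The intervals of KLRK1 and KLRC4 lie above 0, whereas those of KLRC4-KLRK1 and the other genes include 0.

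Ligands of these receptors can be made by NK cells themselves. Of 14 ligand genes, 7 were tested, with 4 above 0, 3 below and a median log2 fold change of 0.0024, and none had an unadjusted p under 0.05 (edgeR). The median was -0.080 with DESeq2, -0.077 with no filter beyond 1 count, and -0.070 to 0.12 with 1 library left out. HLA-E, the ligand of the CD94 receptors, was the most abundant, with 441 and 392 FPKM in control cells, compared with 324 and 394 FPKM in knockdown cells. Its log2 fold change was -0.22 (SE 0.22), with overlapping groups, and it was -0.039 without NK shADAR1 replicate 1 and -0.42 without replicate 2. MICB, a ligand of NKG2D, had 32.2 and 30.8 FPKM with the scrambled hairpin, against 23.4 and 28.7 FPKM with the ADAR1 hairpin, lower in both (log2 fold change -0.28, SE 0.21, edgeR adjusted p = 1.00). This was -0.093 without NK shADAR1 replicate 1 and -0.49 without replicate 2. MICA was 2.96 to 3.92 FPKM, and ULBP2 and RAET1L were listed at 0. CLEC2B, the ligand gene of NKp80, was 26.9 to 30.5 FPKM and CLEC2D, that of CD161, 31.6 to 50.4 FPKM, so both ligands were transcribed in cells with almost no KLRF1 and KLRB1 transcripts.

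Of 25 genes for activating adapters and signaling, HCST among them, 24 were tested. The median log2 fold change was 0.10 (0.022 without NK scramble replicate 1), with 19 above 0 and 5 below, and none had an unadjusted p under 0.05. TYROBP had 40.1 and 35.4 CPM in the NK scramble pair, against 47.0 and 34.8 CPM in the NK shADAR1 pair, with overlap. SYK, a kinase recruited by DAP12, had 83.5 and 96.3 CPM in control cells, compared with 110.2 and 112 CPM in knockdown cells, without overlap (log2 fold change 0.30, SE 0.20, edgeR adjusted p = 1.00). ZAP70, the related kinase, had a log2 fold change of 0.23 (SE 0.23) and overlapping groups, with -0.073 when NK shADAR1 replicate 1 was left out and 0.49 when replicate 2 was.

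Of 11 genes for inhibitory phosphatases and signaling, all were tested, 5 were above 0 and 6 below, and the median was -0.00074, with -0.025 to 0.066 when 1 library was left out. PTPN6, which encodes SHP-1, was the only one with an unadjusted p under 0.05 (edgeR), beside 2.48% of all tested genes and 1.70% that were higher. It had 16.2 and 26.2 CPM with the scrambled hairpin, against 31.3 and 35.5 CPM with the ADAR1 hairpin, a log2 fold change of 0.66 (SE 0.25, edgeR adjusted p = 1.00). The unadjusted p was not under 0.05 without NK scramble replicate 1 (log2 fold change 0.35) or without NK shADAR1 replicate 2 (0.56). The study showed PTPN6 as increased in these samples, so its value is not independent evidence. PTPN11, which encodes SHP-2, had a log2 fold change of -0.00074 (SE 0.23), and INPP5D, which encodes the lipid phosphatase SHIP-1, of 0.096 (SE 0.19). With 1 library left out these were -0.21 to 0.23 and 0.019 to 0.17.

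Markers were used to check the label of the cells. All 16 NK markers were tested, and NKG7, a granule protein gene, was the most abundant at 1742 and 2081 FPKM in the NK scramble pair, against 1896 and 1949 FPKM in the NK shADAR1 pair. Of the 16, 13 were above 0, 4 were higher in both NK shADAR1 libraries (beside 13.3% of all tested genes) and none had an unadjusted p under 0.05, with a median log2 fold change of 0.11. NCAM1, which encodes CD56, was 154 to 202 FPKM, and the receptor gene NCR1 was 19.8 to 31.7 FPKM. Of 12 T cell markers, CD3D was 0.429 and 0.441 FPKM in the control pair, against 0.958 and 0.620 FPKM in the knockdown pair. CD8A and CD8B were at 0, and CD3G, CD4 and CD5 at no more than 0.034, 0.077 and 0.040 FPKM. The rest of the list was expressed. CD3E reached 396 to 554 FPKM, TRBC1 107 to 169 FPKM, TRBC2 102 to 179 FPKM and TRAC 104 to 139 FPKM. CD28 was 31.1 to 46.4 FPKM and CD6 15.6 to 23.8 FPKM. CD3E and T cell receptor transcripts were thus present beside the NK markers. Summed over the T cell list, FPKM was 758 and 940.1 in the control pair, against 999.6 in both knockdown libraries, and all 7 tested genes of that list were above 0 with a median of 0.27. All 5 tested genes of the myeloid list, 3 of them higher in both knockdown libraries, and both tested genes of the B cell list were also above 0, with medians of 0.42 and 0.68. Over the B cell list the sum was 4.07 and 3.03 FPKM in the control pair, against 7.81 and 3.08 FPKM in the knockdown pair (most abundant gene PAX5, with MS4A1 and BLK at 0), so that NK shADAR1 replicate 1 alone was high. Over the myeloid list it was 9.97 and 8.81 FPKM in the control pair, against 12.02 and 12.4 FPKM in the knockdown pair, without overlap (ITGAM, with S100A8 at 0). The epithelial and melanoma list summed to at most 0.794 FPKM (PMEL, with TYR at 0). The part of these lists in the values of the receptor genes was not tested.

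Over the 4 libraries, the 3 genes whose profile lay closest to that of KLRK1 were PLAUR, PHOSPHO1 and TIGD1. Closeness was the root mean square difference of log2 CPM centered on each gene, which was 0.026, 0.045 and 0.045. TIGD1 had 8.11 and 10.2 CPM in control cells, compared with 15.1 and 13.3 CPM in knockdown cells. PLAUR and PHOSPHO1 had at most 1.02 and 2.44 CPM. With 4 libraries many genes can share such a profile, so this is a description of the libraries alone.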

How the data were processed

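RNA from 4 NK-92 libraries was sequenced by the authors after selection on oligo(dT) beads. The deposited table lists estimated counts per gene (expected counts, not scaled) and FPKM, computed by the authors, for 20323 genes, of which 20301 matched a gene symbol. The submitters' processing notes name fastp 0.18.0. The aligner, counting program and genome build are not given in the sources used here. Rounded counts passed filterByExpr at a minimum of 10 and TMM scaling. Groups were compared in edgeR 4.0.16 (R 4.3.3) by a quasi-likelihood fit without covariates, with Benjamini-Hochberg adjustment over 11810 genes. The SE is the size of the log2 fold change divided by the square root of F, and the 95% interval uses the degrees of freedom of that fit. DESeq2 1.42.0, limma 3.58.1 on log2 FPKM (pseudocounts 1 and 0.1), other scalings and filters, a replicate block, summed genes and leaving out each library were alternatives.

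Positions and sequences are from GENCODE release 29. The fits were tested on simulated data. The members and lists were chosen with earlier results of these data known. Genes named are the members, KLRC4-KLRK1, ADAR, 10 genes of the lists (TYROBP, HLA-E, CD69, CLEC2B, CLEC2D, PTPN6, PTPN11, INPP5D, SYK and ZAP70), list genes with an unadjusted p under 0.05, the most abundant marker of each type and the 3 genes most like KLRK1. The lists are chromosomal neighbours, ligands, activating and inhibitory signaling genes and markers of NK, T, B, myeloid and epithelial or melanoma cells. Genes named beyond these (KLRF2, CLEC2A, MICA, MICB, ULBP2, RAET1L and single markers) were chosen after their values were seen. Depth leaves counting error small except for low genes, so precision is set by 2 libraries per group.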

Additional observations from a re-analysis of the deposited data

How the results depend on the processing

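With 2 libraries per group, single libraries moved most values. Leaving out 1 library at a time gave 1 to 47 differentially expressed genes (adjusted p under 0.05 and at least 1.5-fold, 0 with all 4), 204 to 692 genes at an unadjusted p under 0.05 (293 with all 4) and 1 to 4 of the receptor genes and HCST at that threshold. The median log2 fold change then ranged from 0.00074 to 0.51 for the receptor genes and HCST, 0.075 to 0.40 for their chromosomal neighbours, -0.070 to 0.12 for ligands, 0.022 to 0.16 for activating and -0.025 to 0.066 for inhibitory signaling genes. The lone library of a group is then assumed to vary like the other 2. With DESeq2 and with no filter beyond 1 count, the ligand median was -0.080 and -0.077 (0.0024 in the reported fit) and the neighbour median 0.15 in both (0.076 in the reported fit). The replicate number as a replicate block gave 13 differentially expressed genes and 681 at an unadjusted p under 0.05, with KLRC4 and KLRK1 again the 2 receptor genes. The labels name no shared batch, and deviations of same-numbered libraries correlated at r = 0.31 across genes. None of the receptor genes and HCST had an adjusted p under 0.05 in any setting. Log2 fold changes changed sign for KLRD1 (-0.21 to 0.36 with 1 library left out, -0.0096 and -0.0091 with FPKM), KLRC1 (-0.0095 to 0.40), KLRG1 (-0.048 to 0.86) and KLRC3 (-2.55 to 0.46, and 0.19 when summed with KLRC1 and KLRC2). Among the list genes named, whose alternatives were added after seeing the data, values with 1 library left out spanned 0 for TYROBP (-0.12 to 0.31), CLEC2B (-0.070 to 0.16), ZAP70 (-0.073 to 0.49), KLRF2 (-0.16 to 0.22) and PTPN11 (-0.21 to 0.23). Values kept their sign for HLA-E (-0.42 to -0.039), MICB (-0.49 to -0.093), CD69 (0.031 to 0.38), CLEC2D (0.042 to 0.55), INPP5D (0.019 to 0.17), SYK (0.20 to 0.40) and PTPN6 (0.35 to 1.04). PTPN11 was also above 0 with upper quartile scaling (0.011), a mean of at least 50 counts (0.0091), the replicate block (0.0028) and FPKM (0.067 and 0.069). The cause was not tested. Log2 fold changes of KLRC4, KLRK1, KLRC2 and HCST stayed above 0 in every setting run.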
